A study of Homo sapiens with 12 samples.

Results

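The genes described here are the 3 SMAD transducers SMAD2, SMAD3 and SMAD4, the inhibitory SMAD7, the TGF-beta receptors TGFBR1 and TGFBR2, and the oncogenes MYC and BRAF. They were taken by symbol from the deposited expression table, and all 8 were found, each on 1 row, of 60564 genes in all. RNA-seq was run on BxPC-3 and CFPAC-1, established human lines of pancreatic ductal adenocarcinoma. BxPC-3 induced and CFPAC-1 induced cells were starved of serum for 48 h so that they grew primary cilia, and BxPC-3 control and CFPAC-1 control cells were kept in normal culture, with 3 libraries in each of the 4 groups. Per the study's description, 78% of BxPC-3 induced cells, against 5% of BxPC-3 control cells, and 39% of CFPAC-1 induced cells, against 7% of CFPAC-1 control cells, carried a cilium, so the induced libraries mix ciliated and non-ciliated cells, and starvation and ciliation cannot be told apart. Nothing in the labels says that replicates were separate cultures; the p-values below reflect only how far these libraries differ, which may be technical.

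TGF-beta binds a serine/threonine kinase receptor made of TGFBR2, which binds the ligand, and TGFBR1, which is then activated and phosphorylates SMAD2 and SMAD3. These pair with SMAD4, the common partner, and enter the nucleus to regulate transcription, while SMAD7, itself a target of the pathway, blocks the receptor. SMAD4 is among the tumour suppressor genes most often lost in pancreatic cancer, where loss is frequently a homozygous deletion, and receptor mutations occur in a minority of tumours. MYC encodes a transcription factor that drives growth and ribosome production, and BRAF encodes a kinase of the RAS-MAP kinase cascade. BxPC-3 is known for a homozygous deletion of SMAD4 and for a small in-frame deletion in the BRAF kinase domain, which changes the protein and not the presence of the transcript. No SMAD4 genotype of CFPAC-1 is taken as known here.

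Values are in FPKM, fragments per kilobase of transcript normalised to the fragments mapped in the library, a level per length that allows genes to be compared. Changes are differences of mean log2(FPKM + 1), which understate the change of low genes, and a gene passed the test at a limma adjusted p under 0.05 over the 12860 genes with at least 1 FPKM in at least 3 libraries. The number of reads behind each library is not known. The libraries labelled CFPAC-1 control 2 and 3 stood apart from the rest of their line, with a mean correlation of 0.803 with the other CFPAC-1 libraries, against 0.944 among those others. In them KRT19, a keratin of duct cells, was 7.42 and 7.67 FPKM, against 254 to 627 in the other CFPAC-1 libraries. The 7 duct and carcinoma markers were present in BxPC-3 (KRT7 395 to 586 FPKM, CDH1 38.2 to 61.0). In CFPAC-1 KRT7 (0.34 to 2.01 FPKM) and CDH1 (0.18 to 0.892), which encode a duct keratin and E-cadherin, were low in all 6 libraries. CFTR, not among the 7, was at or near 0 in both lines (0 in CFPAC-1, 0 to 0.0181 FPKM in BxPC-3). KRT8 and KRT18, keratins of simple epithelium, were high in all CFPAC-1 libraries (50.7 to 316 and 125 to 318 FPKM). In bulk RNA, fewer cells that express a gene and less RNA per cell cannot be told apart. Whether each library holds the line on its label was not tested, and the line names below are those of the labels. The summed FPKM of 6 fibroblast genes ran from 1.09 to 110, nearly all of it LUM in CFPAC-1 outside control 2 and 3 (25.5 to 108). In control 2 and 3 LUM was at most 0.0532 FPKM. There COL1A1 was 4.27 to 4.28 and COL3A1 1.98 to 2.06 FPKM, against at most 0.14 and 0.16 in the other CFPAC-1 libraries. The sums ran from 1.86 to 48.1 for 5 immune genes (CD68, with PTPRC under 0.1 throughout). They ran from 0.0746 to 0.621 for 4 endothelial genes and from 0 to 2.89 for 5 acinar and endocrine genes. The part of these markers in the results was not tested. The changes of the 8 genes within CFPAC-1 are given with and without the libraries labelled control 2 and 3. So are the counts over the 8 genes and over each list that use the CFPAC-1 controls. Without them the remaining control is a single library assumed to vary like the other groups.

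SMAD4 (ENSG00000141646) lies on the plus strand at chr18:51028394-51085045 (GRCh38, GENCODE release 29). Its transcript was listed at 0 FPKM in all 6 BxPC-3 libraries, both BxPC-3 induced and BxPC-3 control. It was 3.24, 1.06 and 1.53 FPKM in CFPAC-1 induced libraries 1 to 3, against 1.63, 1.48 and 1.82 FPKM in CFPAC-1 control libraries 1 to 3. The lines did not overlap, and the CFPAC-1 groups did. The adjusted p between the lines was 0.000501 in induced cells and 0.000947 in control cells, and SMAD4 had reached 1 FPKM in the CFPAC-1 libraries alone, so it had to differ once it entered the test, and these p-values and the pass under each alternative add nothing to the levels. Of tested genes that passed between the lines, 26.0% in induced and 26.5% in control cells had likewise reached 1 FPKM in 1 line alone. Such genes are given below by their levels, without a p for the difference in level between the lines. No fold is given against a group listed at 0. Within CFPAC-1, the mean was 1.94 ± 1.15 FPKM in induced cells and 1.64 ± 0.172 in control cells (SD, n = 3 each), a change of 0.09 ± 0.23 (SE) on the log2 scale with an adjusted p of 0.812 (0.09 ± 0.33 and 0.941 without CFPAC-1 control 2 and 3).

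The genes next to SMAD4 were also silent in BxPC-3. Upstream, ELAC1, which encodes a tRNA-repair endonuclease and ends 40273 bp before SMAD4, was listed at 0 FPKM in all 6 BxPC-3 libraries, against 0.349 to 0.806 FPKM in the 6 CFPAC-1 libraries. ME2, a mitochondrial malic enzyme that ends 74137 bp before SMAD4, reached at most 0.0071 FPKM in BxPC-3, against 0.699 to 2.95 FPKM in CFPAC-1. Downstream, MEX3C, an RNA-binding ubiquitin ligase whose nearer end lies 89505 bp after SMAD4, reached at most 0.0143 FPKM in BxPC-3, against 2.02 to 3.87 FPKM in CFPAC-1. SMAD4 also overlaps AC091551.1, a gene annotated across ELAC1 and SMAD4 on the same strand, which stayed at or under 0.0571 FPKM in every library.

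The sequences before the RefSeq starts of these 4 genes, silent in BxPC-3, are shown because transcription from those starts would begin beside them. They are the 250 bases before each start in RefSeq on GRCh38.p14, 5′ to 3′ on the gene's own strand, as reference and not as read in either line, with every CG dinucleotide in capitals. They come from chr18:50878868-50879117 (ME2, plus strand), chr18:50967790-50968039 (ELAC1, plus strand), chr18:51029963-51030212 (SMAD4, plus strand) and chr18:51197682-51197931 (MEX3C, minus strand).
ME2: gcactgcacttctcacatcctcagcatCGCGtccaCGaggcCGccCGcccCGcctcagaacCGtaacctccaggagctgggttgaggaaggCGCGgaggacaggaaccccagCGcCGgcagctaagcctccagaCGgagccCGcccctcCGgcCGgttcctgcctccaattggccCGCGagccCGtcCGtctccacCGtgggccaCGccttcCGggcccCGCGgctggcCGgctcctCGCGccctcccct
ELAC1: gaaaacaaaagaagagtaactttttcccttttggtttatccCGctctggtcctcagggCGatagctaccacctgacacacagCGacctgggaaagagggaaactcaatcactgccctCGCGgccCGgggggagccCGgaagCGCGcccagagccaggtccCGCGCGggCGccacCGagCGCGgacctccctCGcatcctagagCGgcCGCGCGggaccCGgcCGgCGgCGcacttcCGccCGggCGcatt
SMAD4: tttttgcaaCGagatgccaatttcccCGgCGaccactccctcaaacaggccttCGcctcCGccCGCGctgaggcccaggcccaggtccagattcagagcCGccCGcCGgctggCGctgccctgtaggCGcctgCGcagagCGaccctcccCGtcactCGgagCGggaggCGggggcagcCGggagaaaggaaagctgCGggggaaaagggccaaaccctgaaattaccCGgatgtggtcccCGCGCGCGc
MEX3C: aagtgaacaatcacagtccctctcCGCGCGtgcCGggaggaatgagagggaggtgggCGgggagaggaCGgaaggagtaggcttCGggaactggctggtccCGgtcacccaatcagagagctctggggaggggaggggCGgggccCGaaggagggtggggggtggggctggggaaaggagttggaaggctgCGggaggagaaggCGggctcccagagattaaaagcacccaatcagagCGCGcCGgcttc
They hold 27 (ME2), 28 (ELAC1), 25 (SMAD4) and 15 (MEX3C) CG dinucleotides, against a median of 11 over 35116 windows of this length. Of those windows, 82.3%, 84.1%, 78.4% and 57.1%, in the same order, hold fewer. These counts describe the reference sequence, and neither DNA copy number nor DNA methylation was measured.

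The silent stretch was bounded by genes expressed in BxPC-3. Of 38 protein-coding genes within 4 Mb of SMAD4, 21 were tested and 3 of them (ME2, SMAD4 and MEX3C) averaged under 0.1 FPKM in BxPC-3 and at least 1 in CFPAC-1, a pattern met by 249 of the 12860 tested genes (1.94%). The nearest expressed neighbour upstream was SKA1, a spindle and kinetochore gene 634221 bp away, at 1.85 to 11.4 FPKM in BxPC-3 and 0.715 to 7.9 in CFPAC-1. Between it and ME2, MAPK4 and MRO were at or near 0 in both lines and so say nothing of the stretch. The nearest expressed neighbour downstream was MBD2, a methyl-CpG-binding gene 3066556 bp away, at 12.4 to 17.9 FPKM in BxPC-3 and 3.95 to 7.61 in CFPAC-1, and DCC, the netrin receptor gene between MEX3C and MBD2, was near 0 in both lines. The RNA therefore places the edges of the stretch no more closely than SKA1 and MBD2. SMAD7 and SMAD2, on the same arm 2076342 and 3097248 bp upstream of SMAD4, were expressed in all 12 libraries.

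**Figure D1:**
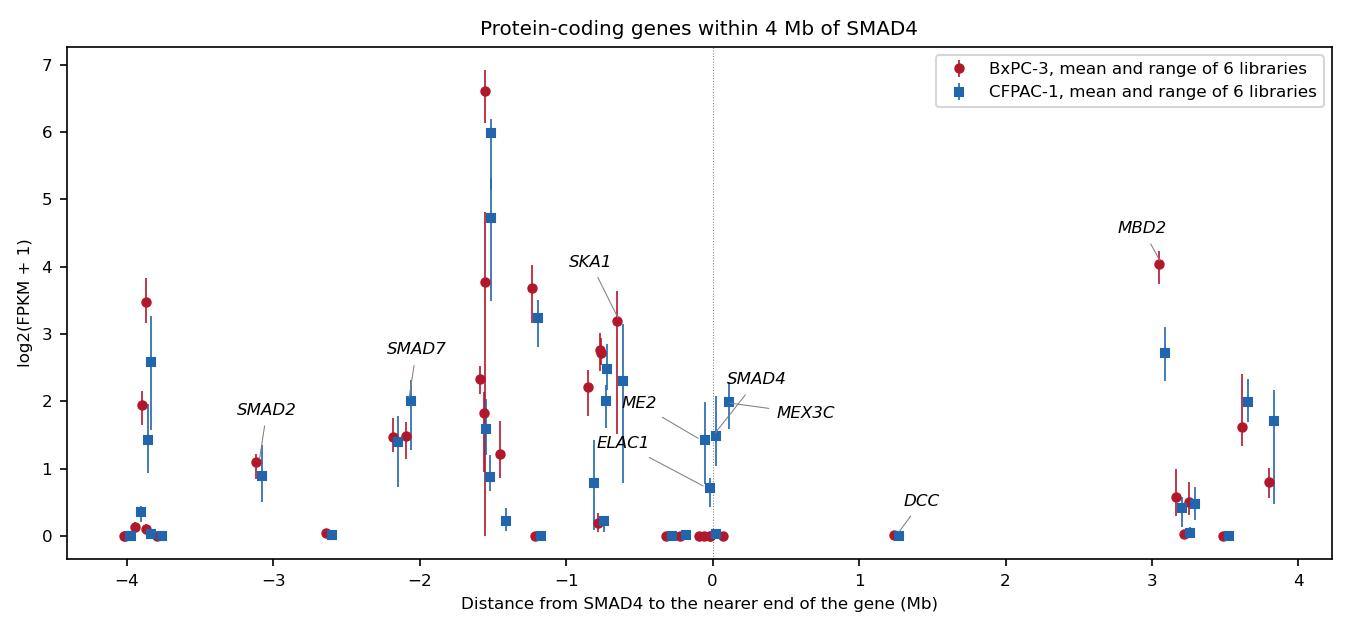
Level of each protein-coding gene within 4 Mb of SMAD4 as log2(FPKM + 1), against its distance from SMAD4 in Mb; points are means of the 6 libraries of a line, bars run from the lowest to the highest library, and BxPC-3 (circles) and CFPAC-1 (squares) points are drawn slightly left and right of the true distance. ME2, ELAC1, SMAD4 and MEX3C lie at 0 in BxPC-3 and above it in CFPAC-1, while SKA1 and MBD2 are expressed in both lines.

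SMAD3 was the most abundant of the 3 transducers in every library. SMAD3 (ENSG00000166949, plus strand, chr15:67063763-67195195) was 58.5, 34.1 and 35 FPKM in BxPC-3 induced libraries and 48.0, 53.9 and 57.2 FPKM in BxPC-3 control libraries. In CFPAC-1 it was 22.7, 14 and 15.8 FPKM in induced libraries, against 15.3, 45.9 and 49.0 FPKM in control libraries. The CFPAC-1 controls thus split, with control 1 inside the range of the induced libraries and control 2 and 3 near the BxPC-3 level. The change in CFPAC-1 was -0.89 ± 0.39 (SE, limma adjusted p = 0.124) with all libraries and 0.15 without control 2 and 3. SMAD3 was higher in BxPC-3 induced than in CFPAC-1 induced cells by 1.22 ± 0.39 on the log2 scale (SE, adjusted p = 0.0303), with no overlap. That call was lost in 7 of 19 alternatives, among them a replicate block (adjusted p = 0.0502).

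SMAD2 was far lower and showed the same split of the CFPAC-1 controls. SMAD2 (ENSG00000175387, minus strand, chr18:47808957-47931146) was 1.32, 1.01 and 1.27 FPKM in BxPC-3 induced libraries and 0.798, 1.19 and 1.16 FPKM in BxPC-3 control libraries. It was 0.637, 0.41 and 0.475 FPKM in CFPAC-1 induced libraries, against 0.491, 1.52 and 1.56 FPKM in CFPAC-1 control libraries, again with control 1 inside the induced range. The change in CFPAC-1 was -0.50 ± 0.21 (SE, limma adjusted p = 0.119) with all libraries and 0.013 without control 2 and 3. Annotated genes overlap SMAD2, 4 in number with 2 on the same strand, none of which was tested. The highest of them, MTCO2P2, reached 1.28 FPKM, within the range of SMAD2 itself. The use of strand in counting is not given and would not separate genes on the same strand. Reads of such genes therefore cannot be told apart from those of SMAD2. The induced lines differed by 0.55 ± 0.21 without overlap (adjusted p = 0.0665; 0.0151 without CFPAC-1 control 2 and 3).

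The ratio of SMAD3 to SMAD2, which does not depend on how a library was scaled, was nearly constant in CFPAC-1. It was 33.2 to 35.6 in CFPAC-1 induced libraries and 30.2 to 31.5 in CFPAC-1 control libraries, although each gene varied widely among those controls. In BxPC-3 it was 27.5 to 44.3 in induced libraries and 45.1 to 60.2 in control libraries. The groups did not overlap in either line, with the ratio higher in CFPAC-1 induced than control and lower in BxPC-3 induced than control. These ratios were not tested, and reads of genes that overlap SMAD2 may enter them.

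**Figure D2:**
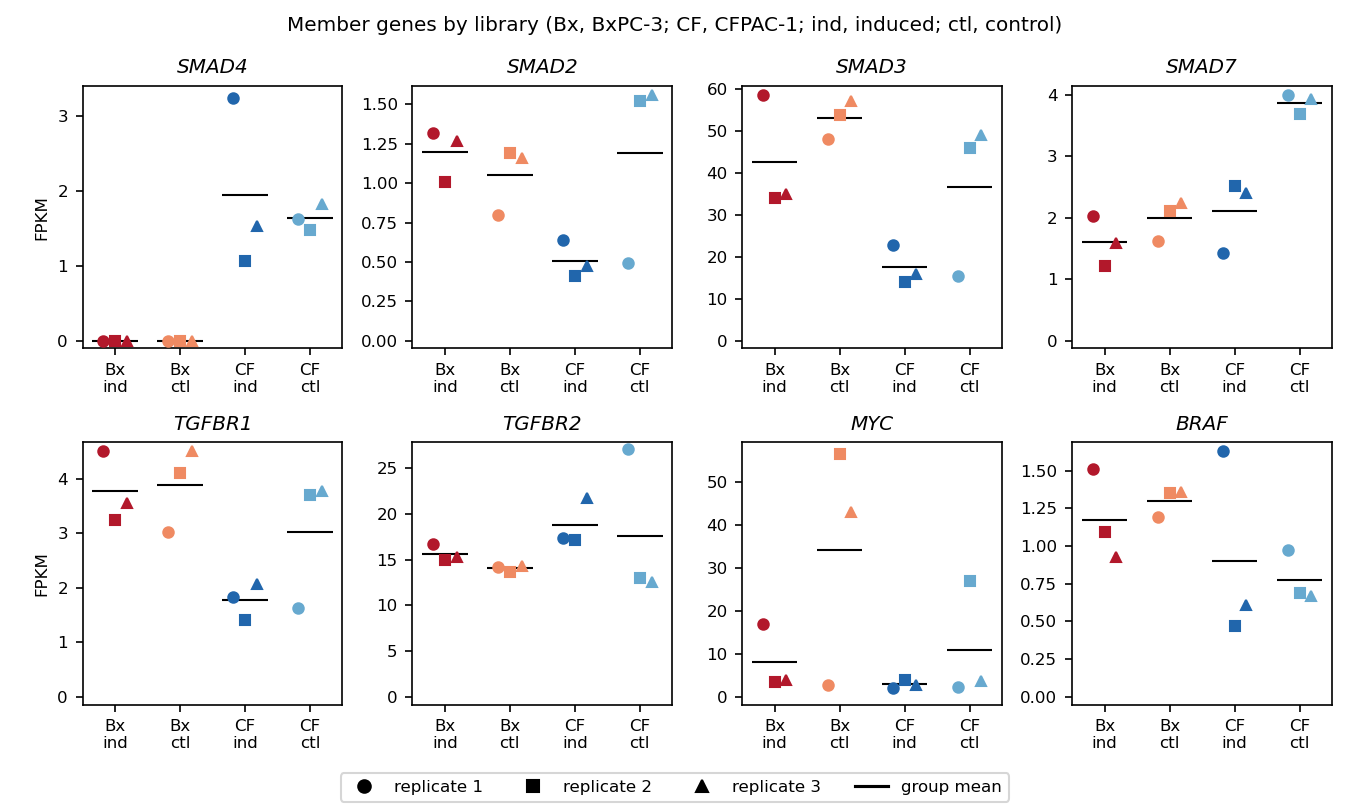
FPKM of the 8 genes in every library, with groups from left to right BxPC-3 induced, BxPC-3 control, CFPAC-1 induced and CFPAC-1 control, symbols for the replicate number and lines for the group mean. SMAD4 is at 0 in all 6 BxPC-3 libraries, and CFPAC-1 control 2 and 3 lie apart from control 1 for SMAD2, SMAD3, TGFBR1 and TGFBR2.

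SMAD7 was the 1 gene of the 8 that passed the test between induced and control cells. SMAD7 (ENSG00000101665, minus strand, chr18:48919853-48952052) was 1.42, 2.52 and 2.40 FPKM in CFPAC-1 induced libraries, against 4.00, 3.68 and 3.93 FPKM in CFPAC-1 control libraries. The groups did not overlap, and control 1 lay with control 2 and 3. It fell by 0.67 ± 0.19 (log2, SE) in CFPAC-1, with an adjusted p of 0.0381, while 16.6% of all tested genes passed in this comparison. Across the 20 alternatives the adjusted p ran from 0.0242 to 0.218 and passed in 8, and without CFPAC-1 control 2 and 3 the change was of like size (-0.70 ± 0.28) with an adjusted p of 0.218. In BxPC-3, SMAD7 was 2.02, 1.21 and 1.59 FPKM in induced libraries and 1.62, 2.10 and 2.24 FPKM in control libraries, which overlap, with a change of -0.20 ± 0.19 (adjusted p = 0.863). The difference between the lines' changes was 0.46 ± 0.27 and did not pass (adjusted p = 0.306; 0.501 without control 2 and 3). Among control cells, SMAD7 was lower in BxPC-3 than in CFPAC-1 by 0.71 ± 0.19 (adjusted p = 0.0176); leaving out CFPAC-1 control 2 and 3 ended this call (adjusted p = 0.0731).

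TGFBR1 (ENSG00000106799, plus strand, chr9:99104038-99154192), the signalling receptor, was 4.5, 3.25 and 3.55 FPKM in BxPC-3 induced libraries and 3.02, 4.10 and 4.51 FPKM in BxPC-3 control libraries. It was 1.83, 1.40 and 2.07 FPKM in CFPAC-1 induced libraries, against 1.62, 3.70 and 3.77 FPKM in CFPAC-1 control libraries. As for SMAD2 and SMAD3, CFPAC-1 control 1 lay inside the induced range and control 2 and 3 above it. The change in CFPAC-1 was -0.497 ± 0.245 (SE, limma adjusted p = 0.168) with all libraries and 0.07 without control 2 and 3. TGFBR1 was higher in BxPC-3 induced than in CFPAC-1 induced cells by 0.78 ± 0.25 without overlap (adjusted p = 0.0277), a call kept in 15 of 19 alternatives.

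TGFBR2 (ENSG00000163513, plus strand, chr3:30606502-30694142), the ligand-binding receptor, was more abundant than TGFBR1 in every library. It was 16.7, 15 and 15.3 FPKM in BxPC-3 induced libraries, against 14.2, 13.6 and 14.3 FPKM in BxPC-3 control libraries. These groups did not overlap, as held for 17.2% of all tested genes in BxPC-3, and the change of 0.15 ± 0.25 had an adjusted p of 0.954. In CFPAC-1 it was 17.4, 17.1 and 21.7 FPKM in induced libraries and 27.1, 13 and 12.6 FPKM in control libraries, so control 1 lay above the induced libraries and control 2 and 3 below them. The change in CFPAC-1 was 0.17 ± 0.25 (adjusted p = 0.669) with all libraries and -0.52 ± 0.21 (adjusted p = 0.225) without control 2 and 3.

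The balance of the 2 receptors differed accordingly. The ratio of TGFBR2 to TGFBR1 was 3.72 to 4.61 in BxPC-3 induced libraries and 3.18 to 4.7 in BxPC-3 control libraries. It was 9.52 to 12.1 in CFPAC-1 induced libraries, 16.7 in CFPAC-1 control 1, and 3.5 and 3.34 in CFPAC-1 control 2 and 3. CFPAC-1 control 2 and 3 therefore lay inside the BxPC-3 range and the other CFPAC-1 libraries outside it.

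MYC (ENSG00000136997, plus strand, chr8:127735434-127741434) varied most of the 8 genes among replicates. It was 17.0, 3.39 and 3.93 FPKM in BxPC-3 induced libraries, against 2.80, 56.6 and 43.1 FPKM in BxPC-3 control libraries. In CFPAC-1 it was 2.02, 3.89 and 2.76 FPKM in induced libraries, against 2.23, 27.0 and 3.59 FPKM in control libraries. Control 2 was high in both lines and control 3 in BxPC-3 alone, and the groups overlapped in both lines. The change in BxPC-3 was -1.55 ± 1.03 (adjusted p = 0.759), a size that 0.226% of the tested genes fell below, and the change in CFPAC-1 was -0.97 ± 1.03 (adjusted p = 0.529). By replicate number the BxPC-3 difference, induced minus control, was 2.24 in number 1 and averaged -3.44 in numbers 2 and 3. The corresponding differences in CFPAC-1 were -0.10 and -1.40. Without CFPAC-1 control 2 and 3 the CFPAC-1 change was 0.24 ± 1.31 (adjusted p = 0.972).

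BRAF (ENSG00000157764, minus strand, chr7:140719327-140924928) was low and detected in every library. It was 1.51, 1.09 and 0.926 FPKM in BxPC-3 induced libraries and 1.19, 1.35 and 1.36 FPKM in BxPC-3 control libraries. It was 1.63, 0.468 and 0.612 FPKM in CFPAC-1 induced libraries and 0.973, 0.691 and 0.666 FPKM in CFPAC-1 control libraries. Library 1 was the highest in each group but BxPC-3 control. The change was -0.09 ± 0.22 in BxPC-3 (adjusted p = 0.982) and 0.05 ± 0.22 in CFPAC-1 (adjusted p = 0.889; -0.10 ± 0.32 and 0.928 without control 2 and 3). Control cells of BxPC-3 and CFPAC-1 did not overlap (0.38 ± 0.22, adjusted p = 0.234; 0.22 ± 0.32 and 0.643 without). BRAF overlaps NDUFB2, a mitochondrial gene at up to 15.6 FPKM, whose reads cannot be told apart from those of BRAF in the shared part if strand was not used. A gene-level FPKM cannot show the deletion in the BRAF coding sequence.

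Read over the 8 genes, the counts by adjusted p with all libraries were close to the background. The other counts are given beside their shares. Between induced and control cells, 1 of 8 passed in CFPAC-1 (16.6% of all tested genes) and 0 of 8 in BxPC-3 (0.334%), by limma. At an unadjusted p under 0.05 the counts were 3 in CFPAC-1 (SMAD2, SMAD3 and SMAD7, against 36.0% of all genes) and 0 in BxPC-3 (8.52%). The difference between the lines' changes passed by limma for 0 of 8 (2.45%; also 0 without CFPAC-1 control 2 and 3), and at an unadjusted p under 0.05 also for 0 (24.3%). Between the lines, BxPC-3 over CFPAC-1, 3 of 8 passed in induced cells (36.2%) and 2 of 8 in control cells (26.2%). SMAD4, which reached 1 FPKM in CFPAC-1 alone, is in both counts and in every count between the lines that follows. Its pass adds nothing to its levels. The others that passed were SMAD3 and TGFBR1 in induced cells and SMAD7 in control cells. Groups did not overlap for 1 of 8 genes in CFPAC-1 (31.6%), 1 of 8 in BxPC-3 (17.2%), 5 of 8 between induced lines (54.5%) and 3 of 8 between control lines (42.3%). Without the libraries labelled CFPAC-1 control 2 and 3, 0 of 8 passed in CFPAC-1 (1.73%; 2 at an unadjusted p under 0.05, SMAD7 and TGFBR2) and 4 of 8 between the induced lines (44.0%), with SMAD2 added. Then also 4 of 8, SMAD4, SMAD3, TGFBR1 and TGFBR2, passed between the control lines (27.5%), with SMAD3 higher in BxPC-3 by 1.72 ± 0.35 (adjusted p = 0.00508), TGFBR1 higher by 0.88 ± 0.26 (adjusted p = 0.0303) and TGFBR2 lower by 0.90 ± 0.21 (adjusted p = 0.0105).

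**Figure D3:**
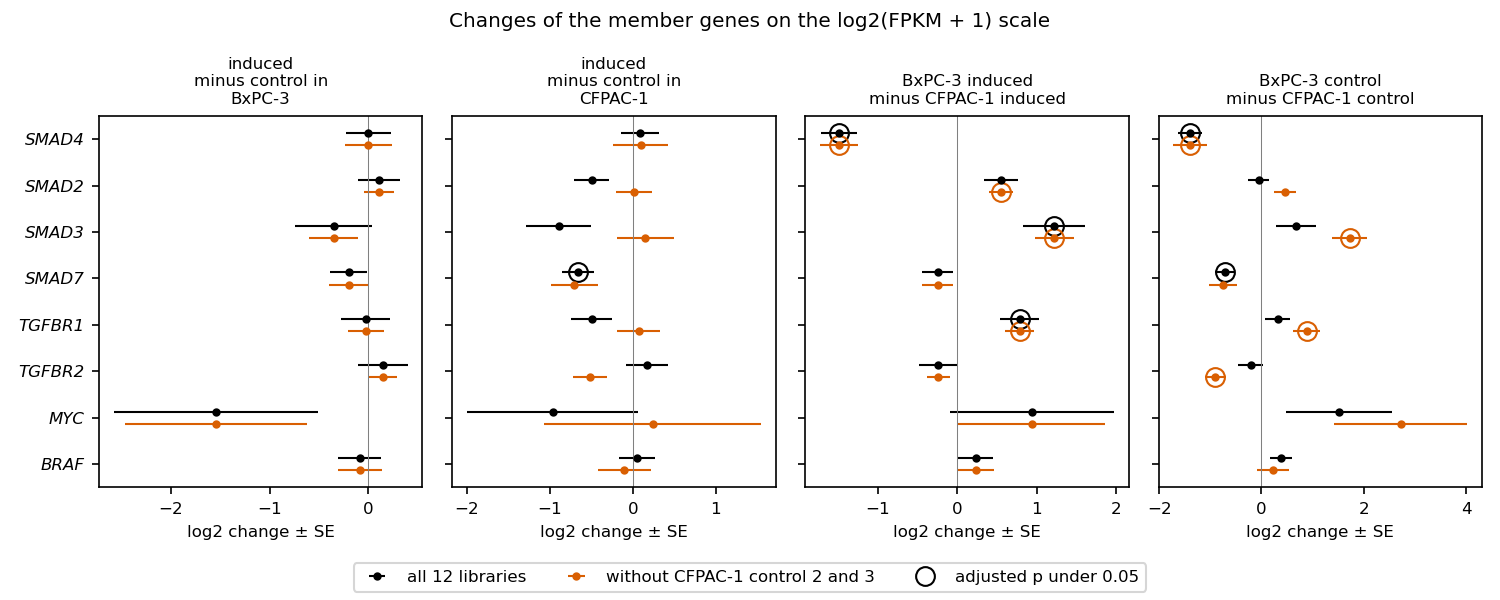
Change of each gene on the log2(FPKM + 1) scale with its SE, in 4 panels (induced minus control in BxPC-3 and in CFPAC-1, then BxPC-3 minus CFPAC-1 in induced and in control cells), with all 12 libraries (black) and without CFPAC-1 control 2 and 3 (orange); rings mark an adjusted p under 0.05. Without those 2 libraries SMAD2, SMAD3 and TGFBR1 lie at 0.01, 0.15 and 0.07 in CFPAC-1 and SMAD7 at -0.70.

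The tested genes whose 12 values were most like each of the 8 were ranked by the root mean square difference of centred log2 values, as a description. For SMAD4 they were RNF144A (0.15), TRPC1 (0.156) and WASF3 (0.178). For SMAD2 they were SRSF8 (0.101), ZNF28 (0.102) and ZSCAN22 (0.11), and for SMAD3 MAP3K4 (0.125), MYO6 (0.152) and ARHGEF3 (0.167). For SMAD7 they were PACSIN2 (0.161), CYB5RL (0.182) and NPLOC4 (0.188). CTNNB1 (0.091), which encodes beta-catenin, was nearest to TGFBR1, and SRSF8 (0.122) was also near. SMARCA2 (0.145), SAMM50 (0.151) and CC2D2A (0.152) were nearest to TGFBR2, and ZBED4 (0.087), PAPD7 (0.097) and HLCS (0.108) to BRAF. For MYC they were AL645608.8 (0.778), C11orf96 (0.802) and RGCC (0.902), beside a root mean square deviation of MYC itself of 1.506. The corresponding deviation was 0.291 for TGFBR2 and 0.382 for SMAD7.

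Ligands and receptors of the TGF-beta family were read beside the 8 genes. Of 9 tested ligands, 1 rose and 0 fell in CFPAC-1, where 7.85% of all tested genes rose and 8.77% fell, and 0 passed in BxPC-3, where 0.334% passed. Their median changes were 0.18 in CFPAC-1 (0.20 without control 2 and 3) and 0.00 in BxPC-3, against -0.09 and 0.06 over all tested genes. BMP2, a bone morphogenetic protein, rose by 1.34 ± 0.36 in CFPAC-1 (2.18 ± 0.32 FPKM in induced and 0.263 ± 0.195 in control cells, SD, n = 3 each; adjusted p = 0.0302). Of the 7 other receptors tested, ACVR1, a receptor for bone morphogenetic proteins, rose by 0.83 ± 0.23 in CFPAC-1 (adjusted p = 0.0346) and 0 fell, and 0 passed in BxPC-3. The median over these receptors in CFPAC-1 was 0.03, and -0.33 without control 2 and 3. Without CFPAC-1 control 2 and 3 neither gene passed (BMP2 adjusted p = 0.311, ACVR1 0.371). The most abundant genes of these lists did not pass in BxPC-3, with changes of 0.24 for TGFB1, -0.93 for GDF15, 0.03 for ACVR1 and 0.44 for ACVR1B.

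Between the induced lines, where 21.4% of all tested genes were higher and 14.8% lower in BxPC-3, several ligands and receptors differed. INHBA, an activin subunit, averaged 3.30 ± 2.13 FPKM in BxPC-3 and was listed at 0 in CFPAC-1. BMP7 averaged 0.00749 ± 0.013 FPKM in BxPC-3 and 2.46 ± 0.527 FPKM in CFPAC-1, and ENG, the co-receptor endoglin, 0.104 ± 0.0549 FPKM in BxPC-3 and 8.03 ± 1.3 FPKM in CFPAC-1. These 3 genes reached 1 FPKM in 1 line alone, and the counts below with all libraries include them in both induced and control cells. BMP2 was higher in BxPC-3 (6.64 ± 0.57 FPKM, against 2.18 ± 0.32 FPKM in CFPAC-1; adjusted p = 0.0176), and BMP4 was lower in BxPC-3 (1.62 ± 0.396 FPKM, against 8.68 ± 5.85 FPKM in CFPAC-1; adjusted p = 0.00602). ACVR1B, an activin receptor that is itself altered in some pancreatic tumours, was higher by 1.42 ± 0.37 (adjusted p = 0.0126) and ACVR1 lower by 0.83 ± 0.23 (adjusted p = 0.0165). In all, 2 of 9 ligands were higher and 2 lower, and 1 of 7 receptors was higher and 2 lower. In control cells, where 13.1% of all tested genes were higher and 13.1% lower, 2 ligands were higher and 1 lower (2 and 2 without CFPAC-1 control 2 and 3), and 0 receptors were higher and 2 lower, with or without those libraries.

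Other SMADs and SMAD regulators, 20 tested, gave 0 genes past the threshold with induction in either line, with a median change of -0.39 in CFPAC-1 (-0.17 without control 2 and 3, again with 0 past the threshold) and 0.08 in BxPC-3. The shares over all tested genes were 16.6% in CFPAC-1 and 0.334% in BxPC-3. The most abundant were STRAP, a receptor-associated protein gene, at -0.49 in CFPAC-1 (-0.45 without control 2 and 3) and 0.11 in BxPC-3, and SMURF1, a ubiquitin ligase for SMADs and receptors, at 1.5 (adjusted p = 0.101; -0.29 without control 2 and 3) and -0.28. Between the induced lines 7 of 20 were higher and 3 lower in BxPC-3, against 21.4% and 14.8% of all tested genes. ZFYVE9, the anchor that presents SMAD2 and SMAD3 to the receptor, was higher (5.03 ± 0.996 FPKM in BxPC-3 and 1.24 ± 0.573 in CFPAC-1, adjusted p = 0.000856). NEDD4L, a ubiquitin ligase for active SMAD2 and SMAD3, was also higher (4.69 ± 0.305 and 1.44 ± 0.383 FPKM, adjusted p = 0.00477). SMURF1 was lower (13.4 ± 4.67 FPKM in BxPC-3 and 75.6 ± 31.7 in CFPAC-1, adjusted p = 0.01), as was BAMBI, a decoy receptor (0.267 ± 0.0638 and 4.12 ± 2.37 FPKM, adjusted p = 0.0147). In control cells 3 were higher and 1 lower (3 and 3 without CFPAC-1 control 2 and 3), against 13.1% and 13.1% of all tested genes.

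Genes known as TGF-beta and SMAD targets came to 18 tested. In CFPAC-1, 2 rose and 0 fell, against 7.85% and 8.77% of all tested genes, with a median of -0.15. Without control 2 and 3, 1 rose and 0 fell, with a median of 0.39. In BxPC-3 0 passed (0.334% of all tested genes; median 0.02). CDKN2B, a cyclin-dependent kinase inhibitor, was 12.0, 13.3 and 14.6 FPKM in CFPAC-1 induced libraries, against 3.53, 0 and 0 FPKM in CFPAC-1 control libraries. It rose by 3.11 ± 0.45 in CFPAC-1 (adjusted p = 0.00289) and by 1.65 when control 2 and 3 were left out (adjusted p = 0.00679). JUNB, an AP-1 subunit, rose by 1.8 ± 0.27 in CFPAC-1 (275 ± 99.0 FPKM in induced and 74.7 ± 7.05 in control cells, adjusted p = 0.00324), and by 1.65 with an adjusted p of 0.0702 without those libraries. In BxPC-3 the change of JUNB was 0.05 and that of ID1, an inhibitor of differentiation, 0.21.

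Between the induced lines, 5 of the 18 targets were higher and 2 lower in BxPC-3, the line in which SMAD4 was listed at 0. Of these 7 genes, 4 reached 1 FPKM in 1 line alone, 2 of them higher and 2 lower in BxPC-3, and over all tested genes 21.4% were higher and 14.8% lower. FN1, which encodes fibronectin, averaged 3.66 ± 0.805 FPKM in BxPC-3 and 0.0278 ± 0.0126 FPKM in CFPAC-1. CDKN2B was at or near 0 in BxPC-3 (0.0606 FPKM in induced library 1 and 0 in the other 5 libraries), and ID2, an inhibitor of differentiation, averaged 0.0484 ± 0.0207 FPKM in BxPC-3 and 3.25 ± 0.97 FPKM in CFPAC-1. In control cells 6 were higher and 1 lower (4 and 2 without CFPAC-1 control 2 and 3), against 13.1% and 13.1% of all tested genes. Of the 7 targets that passed between the control lines with all libraries, 3 reached 1 FPKM in 1 line alone, 2 higher and 1 lower in BxPC-3. The CDKN2A and CDKN2B genes are neighbours, and BxPC-3 is known for a homozygous CDKN2A deletion. CDKN2A was 0.1, 0 and 0.0118 FPKM in BxPC-3 induced libraries and 0 in BxPC-3 control libraries. In CFPAC-1 it was 25.2, 58.2 and 52.1 FPKM in induced libraries, against 49.1, 0 and 0 FPKM in control libraries. Both genes were therefore listed at 0 in the libraries labelled CFPAC-1 control 2 and 3, whereas SMAD4 in those libraries (1.48 and 1.82 FPKM) lay within the range of the other CFPAC-1 libraries.

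MYC partners and targets were read beside MYC itself. Of 13 tested partners, 3 rose and 0 fell in CFPAC-1 (median 0.30), against 7.85% and 8.77% of all tested genes. Without control 2 and 3, 1 rose and 0 fell (median 0.10). In BxPC-3 0 passed (0.334% of all tested genes; median 0.09). MXD4, a MAX-binding antagonist of MYC, was 9.62, 8.05 and 8.38 FPKM in CFPAC-1 induced libraries, against 3.06, 4.27 and 4.34 FPKM in CFPAC-1 control libraries. It rose by 0.99 ± 0.20 (adjusted p = 0.00925) and passed under all 20 alternatives, including the one without control 2 and 3 (1.25, adjusted p = 0.0471). MXI1, another MAX-binding antagonist, rose by 1.9 ± 0.48 (adjusted p = 0.0247; 0.216 without those libraries), and PIM1, a kinase that cooperates with MYC, by 1.44 ± 0.23 (adjusted p = 0.00396; 0.088 without). In BxPC-3 the changes of PIM1 and MLX, a MAX-like partner, were 0.12 and 0.54. Between induced lines, MXD1 and MYCL were higher in BxPC-3 (1.23 ± 0.34 and 1.03 ± 0.31, adjusted p = 0.0153 and 0.0229) and MXD4 was lower (-0.74 ± 0.20, adjusted p = 0.0123). Of the 13 partners, 2 were thus higher and 1 lower, against 21.4% and 14.8% of all tested genes. In control cells 1 partner was higher and 1 lower (1 and 0 without CFPAC-1 control 2 and 3), against 13.1% and 13.1%.

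Of 29 tested MYC targets, 1 rose and 9 fell in CFPAC-1, where 7.85% of all tested genes rose and 8.77% fell. Their median change was -0.59, against -0.09 over all tested genes, and 2 of 29 were above 0. Without control 2 and 3 the median was -0.57 with 0 past the threshold. FBL, the nucleolar methyltransferase fibrillarin, was 82.7, 104 and 96.0 FPKM in CFPAC-1 induced libraries, against 109, 997 and 1010 FPKM in CFPAC-1 control libraries, so control 1 lay close to the induced libraries. FBL fell by 2.34 ± 0.66 (adjusted p = 0.0362; 0.755 without control 2 and 3), RRS1, a ribosome assembly factor, by 1.29 ± 0.40 (adjusted p = 0.0463; 0.543) and SRM, spermidine synthase, by 1.11 ± 0.29 (adjusted p = 0.0284; 0.349). The gene that rose was LDHA, lactate dehydrogenase, by 1.13 ± 0.26 (adjusted p = 0.0165; 0.328). In BxPC-3 0 targets passed (0.334% of all tested genes), the median was 0.14, and FBL and NPM1, a nucleolar chaperone, changed by -0.02 and 0.18. Between induced lines 5 of 29 targets were higher and 2 lower in BxPC-3, against 21.4% and 14.8% of all tested genes. DKC1, a ribonucleoprotein gene, was higher (1.06 ± 0.21, adjusted p = 0.00235). TFRC, the transferrin receptor, was higher by 1.32 ± 0.48 (adjusted p = 0.0487), a call kept in 7 of 19 alternatives and lost with a replicate block (adjusted p = 0.0511). ODC1, ornithine decarboxylase (-1.08 ± 0.33, adjusted p = 0.0236), and LDHA (-0.91 ± 0.26, adjusted p = 0.0167) were lower. In control cells 0 were higher and 7 lower (0 and 3 without CFPAC-1 control 2 and 3), against 13.1% and 13.1% of all tested genes.

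By library, the mean of the MYC targets did not order the samples as MYC did. Centred on the 12 libraries, it was -0.42, 0.20 and 0.18 in BxPC-3 induced libraries, against -0.25, -0.13 and -0.12 in BxPC-3 control libraries, so BxPC-3 induced library 1, with the highest MYC of its group, had the lowest targets of all 12. In CFPAC-1 the mean was -0.24, -0.22 and -0.20 in induced libraries, against 0.28, 0.45 and 0.48 in control libraries, without overlap, and control 1 with 2.23 FPKM of MYC lay above all induced libraries.

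**Figure D4:**
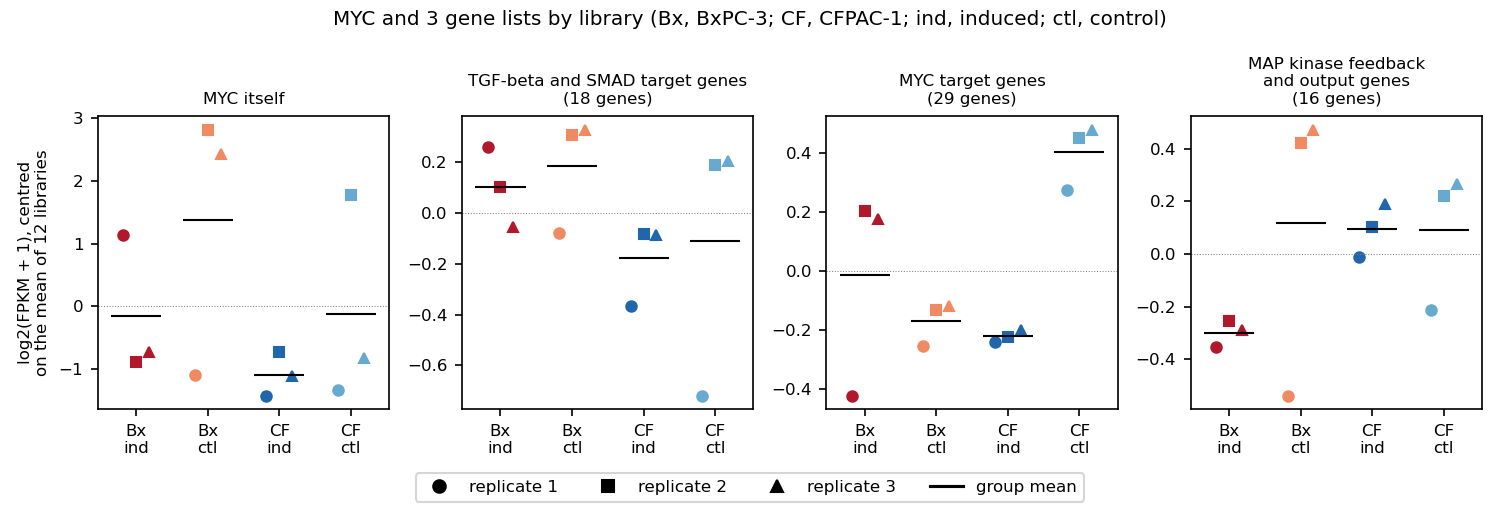
MYC and the means of 3 gene lists in each library as log2(FPKM + 1) centred on the 12 libraries, with groups from left to right BxPC-3 induced, BxPC-3 control, CFPAC-1 induced and CFPAC-1 control, symbols for the replicate number and lines for the group mean. The MYC targets lie lower in all 3 CFPAC-1 induced libraries than in any CFPAC-1 control, and in BxPC-3 control and CFPAC-1 control library 1 lies below libraries 2 and 3 in all 4 panels.

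Around BRAF, 18 genes of the RAF and MAP kinase cascade were tested. In CFPAC-1 0 rose and 2 fell (median -0.20), against 7.85% and 8.77% of all tested genes, and 0 passed without control 2 and 3 (median -0.24). In BxPC-3 0 passed (0.334% of all tested genes; median -0.03). HRAS, a RAS GTPase upstream of BRAF, fell by 1.31 ± 0.38 in CFPAC-1 (adjusted p = 0.0387; 0.677 without control 2 and 3). In BxPC-3 the RAF inhibitor PEBP1 changed by 0.17 and the 14-3-3 gene YWHAZ by -0.07. Between induced lines 4 were higher and 2 lower in BxPC-3 (21.4% and 14.8% of all tested genes), with NRAS (1.28 ± 0.32, adjusted p = 0.00929), HRAS (1.14 ± 0.38, adjusted p = 0.0351) and RAP1A (1.01 ± 0.16, adjusted p = 0.00057) higher and MAPK3, which encodes ERK1, lower (-0.84 ± 0.16, adjusted p = 0.00203). In control cells 2 were higher and 1 lower (3 and 2 without CFPAC-1 control 2 and 3), against 13.1% and 13.1% of all tested genes.

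Of 16 feedback and output genes of the cascade, 1 rose and 1 fell in CFPAC-1 (median -0.02), against 7.85% and 8.77% of all tested genes, and 0 passed without control 2 and 3 (median -0.28). In BxPC-3 0 passed (0.334% of all tested genes; median -0.33). DUSP6, a phosphatase that inactivates ERK, was 32.5, 37.1 and 41.6 FPKM in CFPAC-1 induced libraries, against 8.40, 9.68 and 10.2 FPKM in CFPAC-1 control libraries. It rose by 1.87 ± 0.36 (adjusted p = 0.00912; 2.01 with an adjusted p of 0.09 without control 2 and 3), and all 3 controls were alike. In BxPC-3 DUSP6 was 43.3, 38.1 and 37.7 FPKM in induced libraries, against 26.2, 84.0 and 86.1 FPKM in control libraries, with control 1 below and control 2 and 3 above the induced range. SPRED2, an inhibitor of RAS signalling, fell by 1.43 ± 0.33 in CFPAC-1 (adjusted p = 0.0177; 0.365 without control 2 and 3). In BxPC-3 the most abundant of the list, IER3 and EPHA2, changed by -0.31 and -1.26 (adjusted p = 0.956 and 0.289). Between induced lines 1 was higher and 4 lower in BxPC-3, against 21.4% and 14.8% of all tested genes. The phosphatase DUSP5 was higher (39.2 ± 10.2 FPKM in BxPC-3 and 2.12 ± 0.86 in CFPAC-1, adjusted p = 0.0342), and the feedback inhibitors SPRY2 and SPRY4 (-1.81 ± 0.44 and -1.8 ± 0.47, adjusted p = 0.00873 and 0.0118) and the ETS factor ETV4 (-1.15 ± 0.32, adjusted p = 0.0171) were among the lower. In control cells 2 were higher and 4 lower (3 and 5 without CFPAC-1 control 2 and 3), against 13.1% and 13.1% of all tested genes.

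Among 15 other tested genes that are recurrently altered in pancreatic cancer, 0 rose and 1 fell in CFPAC-1 (median -0.22), against 7.85% and 8.77% of all tested genes, and 0 passed without control 2 and 3 (median -0.21). In BxPC-3 0 passed (0.334% of all tested genes; median 0.11). ARID1A, a chromatin remodelling gene, fell by 1.69 ± 0.46 in CFPAC-1 (1.29 ± 0.308 FPKM in induced and 7.16 ± 4.02 in control cells, adjusted p = 0.0312; 0.539 without control 2 and 3). In BxPC-3 the most abundant, GNAS and RBM10, changed by 0.16 and 0.01. Between induced lines 4 were higher and 1 lower in BxPC-3, against 21.4% and 14.8% of all tested genes. ARID1A was higher (adjusted p = 0.0247), as was ACVR1B (above). RNF43, a ubiquitin ligase for Wnt receptors, averaged 1.82 ± 0.313 FPKM in BxPC-3 and 0.0494 ± 0.0247 FPKM in CFPAC-1. RNF43 and CDKN2A reached 1 FPKM in 1 line alone, so their passes between the induced lines add nothing to the levels. In control cells RNF43 is among the higher genes counted next, and CDKN2A did not pass. In control cells 2 were higher and 1 lower, with or without CFPAC-1 control 2 and 3, against 13.1% and 13.1% of all tested genes.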

How the data were processed

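Total RNA was isolated with TRIzol and sequenced after standard Illumina library preparation, per the labels' protocols. FastQC, StringTie and build GRCh38 are named, with no version, in the submitters' processing notes; no aligner, annotation or strand setting is given in the sources used here. The authors deposited log2 values of FPKM plus 1 for 60564 genes in 12 libraries, per the file headers and the values, and FPKM was recovered by undoing the offset; all 12 columns were matched to samples by name. FPKM is relative to each library's total (mitochondrial genes took 11.6% to 34.0%), and no read counts are given, so depth and counting intervals are unknown and a 0 may lie under the limit of detection.

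limma 3.58.1 in R 4.3.3 was fitted to log2(FPKM + 1), with 4 group means over 12 libraries (8 residual degrees of freedom), for the 12860 genes with at least 1 FPKM in at least 3 libraries. P-values are two-sided, adjusted by Benjamini-Hochberg over all of these genes, with a threshold of 0.05; the fit was tested on simulated data. The 8 genes and the lists were chosen with earlier results of these data known. From each list the genes past the threshold were named, at most 4 by size of change, or else the 2 of highest level; for the difference between the lines' changes and for the control-line comparison the lists are given by counts or by the genes past the threshold only. Some genes that this rule or the ranking by likeness picks are counted and not reported here by name. Coordinates are 1-based from GENCODE release 29, in which 58457 of the identifiers (96.5%) were found, and upstream sequences are from RefSeq on GRCh38.p14.

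Samples of the same replicate number deviated together between the lines (r 0.125 to 0.287 in induced and 0.119 to 0.162 in control cells). This met the rule used for pairing, every r over 0.1. Numbers 2 and 3 also deviated together when crossed (0.139 and 0.181 in induced, 0.116 and 0.124 in control cells). Number 1 went against both (-0.292 to -0.168 in induced, -0.155 to -0.125 in control cells). The deviations within a group sum to 0, so part of this opposition is built in. By the crossed values of numbers 2 and 3, the libraries split into number 1 and numbers 2 and 3, and pairing by number is not shown. Between induced and control cells the rule was not met (same number, r from -0.0798 to -0.0198 in CFPAC-1 and 0.0535 to 0.151 in BxPC-3). Alternatives were an offset of 0.1, no filter, quantile normalization, rescaling without mitochondrial genes, limma's trend and robust settings, a replicate block, each line alone, each library left out in turn, and CFPAC-1 control 2 and 3 left out together.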

Additional observations from a re-analysis of the deposited data

Results flagged for a closer look

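The difference between the lines' changes (BxPC-3 minus CFPAC-1, limma adjusted p) passed for 4 of the pathway genes and none of the 8 genes. Over all tested genes 315 of 12860 passed (2.45%). By list, 1 was positive and 2 negative of 18 TGF-beta and SMAD targets, and 1 was negative of 16 MAP kinase feedback and output genes. No other list held a gene past the threshold. CDKN2B reached 1 FPKM in CFPAC-1 alone and FN1 in BxPC-3 alone, so for both the difference is mostly the change of 1 line. The difference was -3.08 for CDKN2B (adjusted p = 0.0374), which was at or near 0 in all BxPC-3 libraries. It was -1.62 without CFPAC-1 control 2 and 3. It was -2.39 for DUSP6 (adjusted p = 0.041; 0.123 without those libraries) and -1.75 for JUNB (adjusted p = 0.0438; 0.166 without), and the replicate block ended this call (adjusted p = 0.0512). It was 0.99 for FN1 (adjusted p = 0.0473; 0.181 without; 0.0526 with a replicate block). FN1 was 3.11, 3.28 and 4.58 FPKM in BxPC-3 induced libraries, against 1.72, 1.44 and 1.45 FPKM in BxPC-3 control libraries, and under 0.22 FPKM in all CFPAC-1 libraries.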

How the results depend on the processing

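Leaving out CFPAC-1 control 2 and 3 turned the CFPAC-1 change of SMAD2 (to 0.013), SMAD3 (0.15), TGFBR1 (0.07), TGFBR2 (-0.52), MYC (0.24), BRAF (-0.10) and SMURF1 (-0.29). It turned the difference between the lines' changes of SMAD3 (-0.51), TGFBR1 (-0.10), TGFBR2 (0.67) and BRAF (0.012), and the control-line difference of SMAD2 (0.45). It left 222 genes and 0 of the 8 past the threshold in CFPAC-1, 55 genes for the difference of changes, and 4 of the 8 between control lines. Quantile normalization turned BRAF in CFPAC-1 (-0.037) and ACVR1 (-0.045) and RBM10 (-0.082) in BxPC-3, and left 0 of the 8 called in CFPAC-1. Rescaling without mitochondrial genes turned ACVR1 (-0.022), JUNB (-0.01) and RBM10 (-0.051) in BxPC-3 and the difference of changes of TGFBR2 (0.047). An offset of 0.1 gave 25 genes in BxPC-3 and 163 for the difference of changes, against 43 and 315. Without a filter there were 73 genes in BxPC-3, 0 of the 8 in CFPAC-1 and 1 of the 8 between induced lines. Each line fitted alone gave 364 genes and 0 of the 8 in CFPAC-1, against 2138 and 1, and 13 genes in BxPC-3.

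Leaving out 1 library at a time gave 506 to 5403 genes and 0 to 5 of the 8 in CFPAC-1, with the highest counts without control 1 and the fewest genes, 506 each, without control 2 and without control 3, and 2 to 249 genes in BxPC-3, fewest without control 3 and most without control 1. For the difference of changes it gave 0 (without BxPC-3 control 2) to 4148 genes and 0 to 3 of the 8 (both highest without CFPAC-1 control 1). It gave 1 to 4 of the 8 between induced lines, 2238 to 4818 genes between control lines and 1 to 2 of the 8 there. In CFPAC-1 the changes ran from -0.21 to 0.31 for SMAD4, -0.015 to 0.51 for TGFBR2 and -0.20 to 0.22 for BRAF. In BxPC-3 they ran from -0.16 to 0.065 for TGFBR1, -0.17 to 0.16 for FBL, -0.11 to 0.12 for ACVR1, -0.05 to 0.39 for ID1, -0.057 to 0.23 for PIM1, -0.81 to 0.18 for IER3, -0.23 to 0.029 for YWHAZ, -0.12 to 0.16 for JUNB, -0.12 to 0.47 for NPM1 and -0.11 to 0.16 for RBM10. The differences of changes ran from -0.31 to 0.21 for SMAD4, -0.36 to 0.16 for TGFBR2, -1.82 to 0.14 for MYC and -0.31 to 0.11 for BRAF. The control-line differences ran from -0.31 to 0.075 for SMAD2 and -0.40 to 0.13 for TGFBR2.

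With a replicate block, 2428 genes were called in CFPAC-1 and 33 in BxPC-3, against 2138 and 43, and 1 and 0 of the 8. Beside SMAD3, the block ended the calls of TFRC between induced lines (adjusted p = 0.0511) and of FN1 and JUNB for the difference of changes (0.0526 and 0.0512), and SMURF1 in CFPAC-1 passed (0.0451); it changed no other call of a gene named here. Between induced and control cells the samples share only a number. The cause of each of these shifts was not tested.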
